A study of Rattus norvegicus with 6 samples.

Results

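Astrocyte markers are genes by which astrocytes, the star-shaped glia of the brain, are recognized in tissue. The set described here was Gfap, Aqp4, Slc1a2, Slc1a3, Gja1, S100b, Aldh1l1, Glul, Sox9 and Aldoc, measured in the contralateral prelimbic cortex (PL) of rats after spared nerve injury (SNI), a model of neuropathic pain. A member was read from every probe set, a group of short probes along a transcript on the Affymetrix Rat Genome array, that carries its gene symbol and no other in the platform annotation. Of the 10 genes, 9 were measured, by 18 probe sets, among 14217 genes in all. Sox9, a transcription factor of astrocytes, had no probe set with its symbol alone and is not analysed here.

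All samples came from male Sprague-Dawley rats, a few weeks of age at the start of the study, and all were taken 14 days after surgery. In the 3 samples of the SNI group the tibial and common peroneal branches of the left sciatic nerve had been cut and the sural branch spared. The 3 samples of the control group are taken here as the sham group of the methods, in which the same nerves were exposed and left whole. The methods do not state that the control and sham groups are the same. If they are, both groups had anesthesia (isoflurane in the labels, pentobarbital in the methods) and a wound. Neither the labels nor the methods say that the 3 samples of a group were 3 separate rats, or whether rats were pooled. The p-values therefore rest on how far these samples differ from each other, a spread that may be technical.

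Astrocytes take up the glutamate that neurons release, by the transporters GLAST (Slc1a3) and GLT-1 (Slc1a2), and turn it into glutamine by glutamine synthetase (Glul). They are joined to each other by gap junctions of connexin (Gja1) and hold the water channel aquaporin 4 (Aqp4) in the end feet that cover blood vessels. When tissue is injured astrocytes become reactive, and the intermediate filament Gfap is the gene most used to follow that state. In chronic pain reactive astrocytes are best known from the spinal cord.

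Each value is a log2 expression value that the deposited file gives relative to the middle of the 6 samples for that probe set. A value of 0 is therefore not an absent transcript, and no gene can be set against another by its level, so that the label of the set could not be checked by how strongly its genes were expressed. A value for a gene is the mean of its probe sets. Differences are the SNI group minus the control group on the log2 scale, tested with limma, two-sided, with adjustment by the Benjamini-Hochberg method over all genes or all probe sets. In bulk tissue, fewer astrocytes and less RNA per astrocyte cannot be told apart. With 3 arrays a group the number of arrays limits the precision, and an exact permutation test cannot give a p under 0.1.

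Some properties of the arrays touch the results. The control samples varied more than the SNI samples, and 70.1% of all probe sets had their larger SD among the controls. Hybridization controls, which are foreign transcripts spiked into every array, gave higher values in the SNI group (0.11 ± 0.07 SD against −0.16 ± 0.10 SD, n = 3 each, difference 0.27), with no overlap of the groups. Control sample 3 was the lowest in that measure at −0.22, and it stood apart for markers of meninges and fibroblasts, whose mean over 9 genes was 0.86 there and between −0.32 and 0.33 in the other 5 samples.

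The promoters of the members the results turn on are shown first, as RefSeq gives them for build GRCr8, from 250 bases before the transcription start to 50 after it. Aldoc is shown because it was the member with the smallest p, Gfap because it had the largest difference and Gja1 because 1 of its probe sets stood apart from the others. Capitals mark a match to the AP-1 motif TGANTCA.
Aldoc, chr10:63715294-63715593, plus strand: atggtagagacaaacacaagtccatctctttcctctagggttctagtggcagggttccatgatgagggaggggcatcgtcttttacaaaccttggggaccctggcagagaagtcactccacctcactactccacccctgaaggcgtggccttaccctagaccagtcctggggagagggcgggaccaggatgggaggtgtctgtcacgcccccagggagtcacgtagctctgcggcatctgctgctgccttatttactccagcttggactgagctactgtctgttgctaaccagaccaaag
Gfap, chr10:88361612-88361911, minus strand: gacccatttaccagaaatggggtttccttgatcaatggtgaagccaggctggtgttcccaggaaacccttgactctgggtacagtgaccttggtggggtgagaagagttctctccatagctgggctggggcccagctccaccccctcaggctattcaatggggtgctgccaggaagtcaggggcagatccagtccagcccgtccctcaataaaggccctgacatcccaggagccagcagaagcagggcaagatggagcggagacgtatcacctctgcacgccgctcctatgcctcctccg
Gja1, chr20:36302314-36302613, plus strand: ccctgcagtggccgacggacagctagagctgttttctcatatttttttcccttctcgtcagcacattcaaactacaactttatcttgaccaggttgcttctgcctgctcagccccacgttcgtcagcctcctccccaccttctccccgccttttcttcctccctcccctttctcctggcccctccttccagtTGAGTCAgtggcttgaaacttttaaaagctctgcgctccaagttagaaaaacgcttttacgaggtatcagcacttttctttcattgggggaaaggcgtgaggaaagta

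Motifs of factors known in astrocytes were searched on both strands, a choice made after the values were seen. The AP-1 motif, which Fos and Jun proteins bind, was matched in the window of Gja1 alone among the 9 members, as TGAGTCA beginning 58 bases before the start. Of all 33469 promoter windows 7.33% hold this motif. The STAT motif TTCNNNGAA, found in 8.87% of all windows, and the full NFI motif, TTGGC and GCCAA with 5 bases between them, found in 0.0418%, had no match in the 14 windows of the members. No match says only that these letters are not in this window.

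No astrocyte marker passed the test after adjustment. Over the gene means the adjusted p of the 9 members lay between 0.356 and 0.932, and over the 18 probe sets between 0.238 and 0.983. Of all 14217 genes, 0% passed at an adjusted p under 0.05, with 563 higher and 1307 lower at an unadjusted p under 0.05; of all 31042 probe sets, 0.0322% passed. The members' differences were nevertheless mostly on one side of 0. Of the 9 gene means 8 were higher in the SNI group and 1, Aqp4, was lower, while 45.2% of all genes were higher. Some lists described below leaned the same way. Higher were 16 of 17 microglia markers, 8 of 9 markers of pericytes and smooth muscle, and 9 of 11 of endothelium. Of the 113 other astrocyte genes 72 were higher. Of neuron markers 3 of 16 were higher, and of oligodendrocyte markers 4 of 13. The median difference was 0.10 over the members and −0.011 over all genes.

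At an unadjusted p under 0.05, 1 member of 9, Aldoc, was higher and none was lower; 3.96% of all genes were higher and 9.19% lower by the same criterion. The groups did not overlap for the same gene, where 6.39% of all genes had every SNI sample above every control sample. A single gene is too few to set the members apart from these shares.

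**Figure D1:**
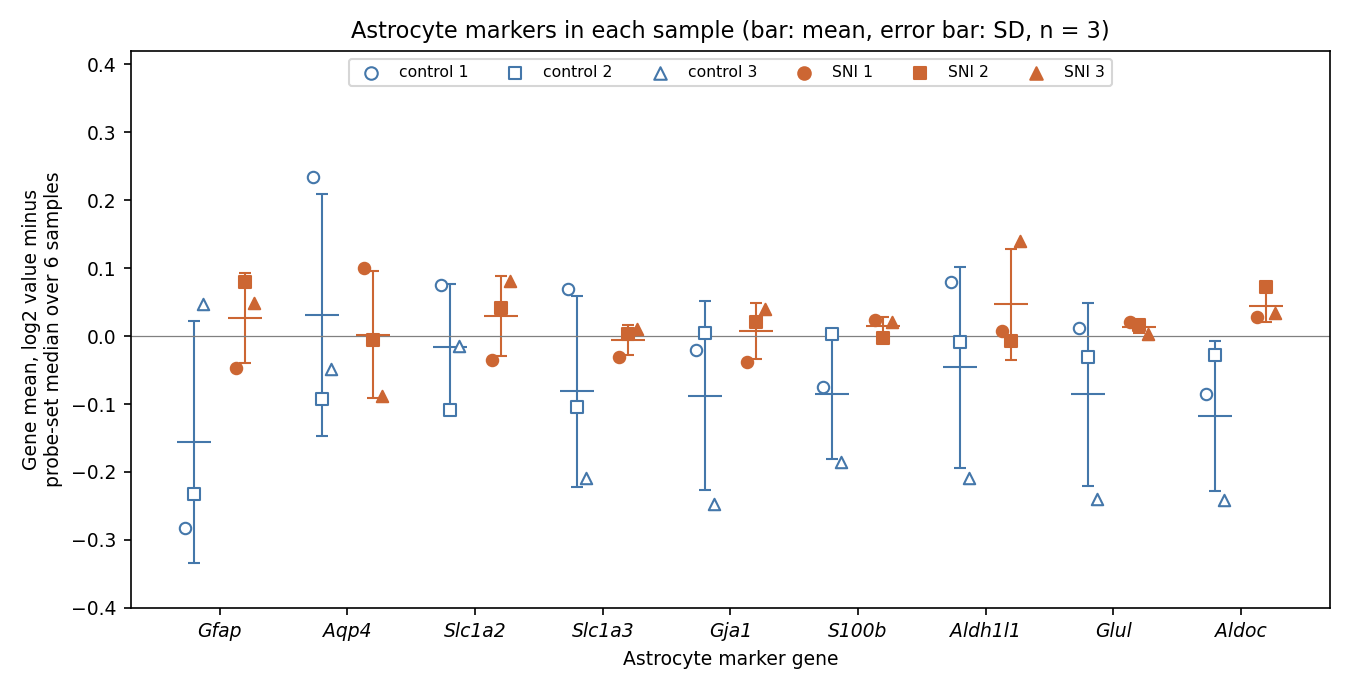
Gene mean of each astrocyte marker (x axis) in each sample, as log2 values relative to the middle of the 6 samples (y axis). Open blue symbols are the 3 control samples and filled orange symbols the 3 SNI samples, a horizontal bar gives each group's mean and the vertical line its SD. Control 3 (open triangle) is the lowest of the 6 samples for 6 of the 9 genes, and the SNI samples spread less than the control samples for every gene.

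Gfap, the intermediate filament of reactive astrocytes, was at −0.048, 0.080 and 0.048 in SNI samples 1 to 3 and at −0.28, −0.23 and 0.048 in control samples 1 to 3. Control samples 1 and 2 were below every SNI sample, and control sample 3 was level with SNI sample 3, so that the groups overlapped. The difference of Gfap was 0.18 (SE 0.09, 95% confidence interval −0.03 to 0.39, limma adjusted p = 0.447), the largest of the 9 members. Without control sample 3 the difference of Gfap was 0.28 (SE 0.07, limma adjusted p = 0.321, an unadjusted p under 0.05), and without control sample 1 it was 0.12. Control sample 3 was the sample that was high in meningeal and fibroblast markers, and its part in the value of Gfap was not tested.

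S100b, a calcium-binding protein of astrocytes, had values of 0.024, −0.0026 and 0.021 in the SNI samples and of −0.074, 0.0026 and −0.19 in the control samples. The SNI samples lay within a narrow band and control sample 3 was far below it. The difference of S100b was 0.10 (SE 0.06, adjusted p = 0.543), and 0.050 without control sample 3.

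The genes of glutamate uptake and conversion all had small positive differences. Slc1a3 (GLAST) was at −0.031, 0.0027 and 0.011 in the SNI samples and at 0.070, −0.11 and −0.21 in the control samples, so that control sample 1 lay above all SNI samples and control samples 2 and 3 below them. Its difference was 0.08 (SE 0.08, adjusted p = 0.719). Slc1a2 (GLT-1), the main glutamate transporter of the forebrain, was at −0.035, 0.041 and 0.081 against 0.075, −0.11 and −0.015, with overlapping groups. Its difference of 0.05 (SE 0.07, 95% confidence interval −0.11 to 0.20, adjusted p = 0.820) was the smallest of the positive ones. Glul, which makes glutamine from glutamate, was at 0.021, 0.017 and 0.0029 in the SNI samples and at 0.012, −0.030 and −0.24 in the control samples. Only control sample 3 lay well apart from the other 5, and the difference of Glul was 0.10 (SE 0.07, adjusted p = 0.619).

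Both membrane proteins by which astrocytes exchange water, ions and small molecules had overlapping groups. Gja1, the main connexin of astrocytes, was at −0.039, 0.021 and 0.040 in the SNI samples and at −0.020, 0.0045 and −0.25 in the control samples. Its difference of 0.10 (SE 0.08, adjusted p = 0.650) became 0.015 without control sample 3, whose value was the lowest of any member in any sample other than that of Gfap in control sample 1. Aqp4 (aquaporin 4) was at 0.10, −0.0054 and −0.088 against 0.23, −0.093 and −0.048, so that the highest and the lowest of the 6 values were both in control samples. The difference of Aqp4 was −0.03 (SE 0.10, 95% confidence interval −0.25 to 0.19, adjusted p = 0.932), and it was 0.07 without control sample 1.

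Aldoc, the brain form of the glycolytic enzyme aldolase, was at 0.028, 0.072 and 0.034 in the SNI samples and at −0.085, −0.028 and −0.24 in the control samples. It was the 1 member of 9 whose 3 SNI samples all lay above the 3 control samples. The difference of Aldoc was 0.16 (SE 0.07, 95% confidence interval 0.0080 to 0.32, limma adjusted p = 0.356), or 1.12-fold, with an unadjusted p under 0.05. Aldoc has a single probe set, and in the fit over all probe sets the same values had an unadjusted p above 0.05 (limma adjusted p = 0.390). Without control sample 3 the difference was 0.10 (adjusted p = 0.603). The array's own control probe sets of GAPDH, a later enzyme of glycolysis, had a mean difference of −0.20, with every SNI sample below every control sample. Those of beta-actin (−0.12) and hexokinase (−0.18) were also lower in the SNI group with no overlap. Of all probe sets, 11.2% had every SNI sample below every control sample. Aldh1l1, a folate enzyme used to label all astrocytes, was at 0.0077, −0.0077 and 0.14 against 0.079, −0.0090 and −0.21, with overlapping groups. Its difference was 0.09 (SE 0.08, adjusted p = 0.688).

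Of the 6 samples, control sample 3 moved the median difference of the members most when left out. For Slc1a3, Aqp4 and Slc1a2 the difference moved further without control sample 1, to 0.15, 0.07 and 0.09, than without control sample 3. Control sample 3 was the lowest of the 6 for 6 of the 9 members (Slc1a3, Gja1, S100b, Aldh1l1, Glul and Aldoc), against 16.3% of all genes. The median over the members was 0.0077, 0.017 and 0.034 in SNI samples 1 to 3, and 0.012, −0.030 and −0.21 in control samples 1 to 3. Control sample 1 thus lay within the range of the SNI samples. Without control sample 3 the median difference of the members was 0.022, where it was −0.016 over all genes, and 8 of the 9 were still above 0. The 1 member with an unadjusted p under 0.05 was then Gfap in place of Aldoc, beside 3.33% of all genes that were higher and 6.96% that were lower, and 0.00703% of all genes passed adjustment. The spread went the same way as on the arrays in general. All 9 members had a larger SD in the control group, as had 70.6% of all genes.

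With each array's mean hybridization control value as a covariate, the median difference of the members was −0.029 and 4 of the 9 stayed above 0. In that fit Gfap was higher by 0.50 (SE 0.17) and Aqp4 lower, at −0.44 (SE 0.14), both with an unadjusted p under 0.05 and neither past adjustment (limma adjusted p = 0.563 for both). Slc1a2, Slc1a3, Aldh1l1 and Glul turned to differences between −0.15 and −0.029. The hybridization controls did not overlap between the groups, so the covariate and the injury can hardly be told apart, and the standard errors of the members were between 0.14 and 0.18, and between 0.06 and 0.10 without the covariate. Gfap, Gja1, S100b and Aldoc were above 0 in every setting run.

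**Figure D2:**
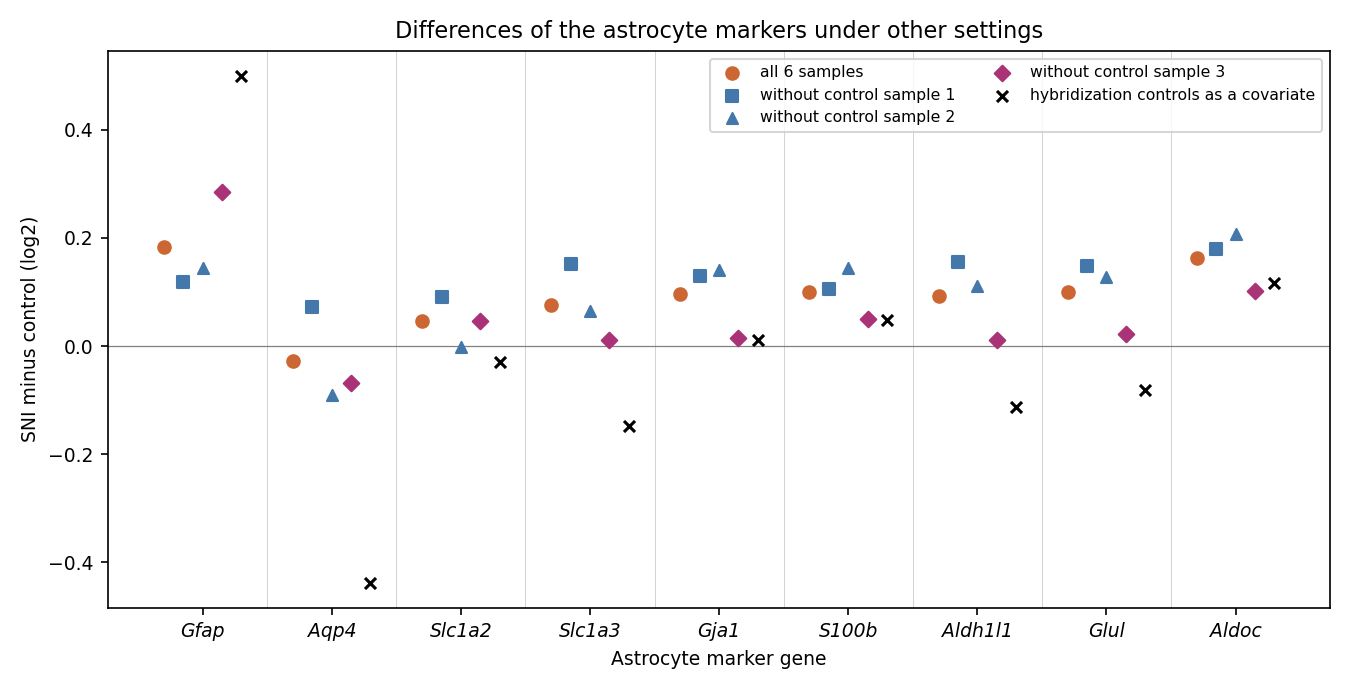
SNI minus control on the log2 scale (y axis) for each astrocyte marker (x axis) with all 6 samples, without each control sample in turn and with the hybridization controls as a covariate. Without control sample 3 (diamonds) Slc1a3, Gja1, Aldh1l1 and Glul lie between 0.012 and 0.022, while Gfap lies at 0.28.

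The probe sets of 1 gene did not always give the same difference. Of the 18 probe sets, 15 had a positive and 3 a negative difference, with a median of 0.10, where 49.6% of all probe sets were above 0. At an unadjusted p under 0.05, 2 of 18 were higher and none was lower (5.6% and 7.47% of all probe sets), and 3 had no overlap of the groups, all with SNI above (8.35% of all probe sets). These 3 were 1 of Gja1, 1 of Glul and that of Aldoc.

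Aqp4 and Slc1a3 had probe sets of both signs, and those of Aqp4 lay further apart. The probe set made from a RefSeq mRNA (1387397_at) had a difference of −0.16 (SE 0.10) and that from another mRNA (1368981_at) one of −0.11 (SE 0.11). The remaining one (1372190_at), made from an expressed sequence tag, a short read of a cDNA clone, had a difference of 0.18 (SE 0.10); their adjusted p lay between 0.517 and 0.738. When the mean of the first pair was subtracted from this one within each sample, the remainder was 0.16, 0.092 and 0.048 in SNI samples 1 to 3 and −0.23, −0.23 and −0.20 in control samples 1 to 3. The groups did not overlap. The difference of this remainder was 0.32 (0.10 ± 0.06 SD against −0.22 ± 0.02 SD, n = 3 each, two-sided exact permutation p = 0.1, the smallest this design allows). This comparison was chosen after the values were seen, with 1372190_at set against a pair already known to have the opposite sign. The difference of the remainder therefore had to be larger than that of any of the probe sets alone. Its size and its p do not test whether the probe sets disagree. For Gja1 and Glul the mean of 2 probe sets from expressed sequence tags was set against 1 from an mRNA. The difference was 0.05 for Gja1 (exact permutation p = 0.8) and −0.10 for Glul (exact permutation p = 0.5), with overlapping groups. For Gja1 that mean joined 1372002_at with 1369640_at, so 1372002_at was not compared alone.

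Gja1 was likewise read by 3 probe sets. Of these, 1369640_at and 1372002_at were both made from expressed sequence tags. The second, 1372002_at, was at 0.11, 0.049 and 0.052 in the SNI samples and at −0.049, −0.20 and −0.17 in the control samples, with no overlap. Its difference of 0.21 (SE 0.07, limma adjusted p = 0.238) was the largest of the 18. The others were at 0.06 (1369639_at, SE 0.09) and 0.015 (1369640_at, SE 0.15). The last of these spread from −0.44 in control sample 3 to 0.13 in control sample 1.

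Glul had a difference of 0.17 (SE 0.07, limma adjusted p = 0.349) on 1367632_at, where the SNI samples ranged from 0.017 to 0.070 and the control samples from −0.19 to −0.017. On 1386870_at and 1367633_at it was 0.10 (SE 0.09) and 0.025 (SE 0.10), and on both the SNI samples lay within 0.0104 of 0 while control sample 3 was at −0.29 and −0.26. Slc1a3 had differences of 0.13 (SE 0.09), 0.12 (SE 0.12) and −0.03 (SE 0.07) on 1368565_at, 1388064_a_at and 1371130_at. In control sample 3 these were at −0.28, −0.39 and 0.046, so that the low value of that sample for Slc1a3 was not seen on the last of them. Both probe sets of Slc1a2, at 0.03 (SE 0.09) and 0.06 (SE 0.07), had overlapping groups.

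**Figure D3:**
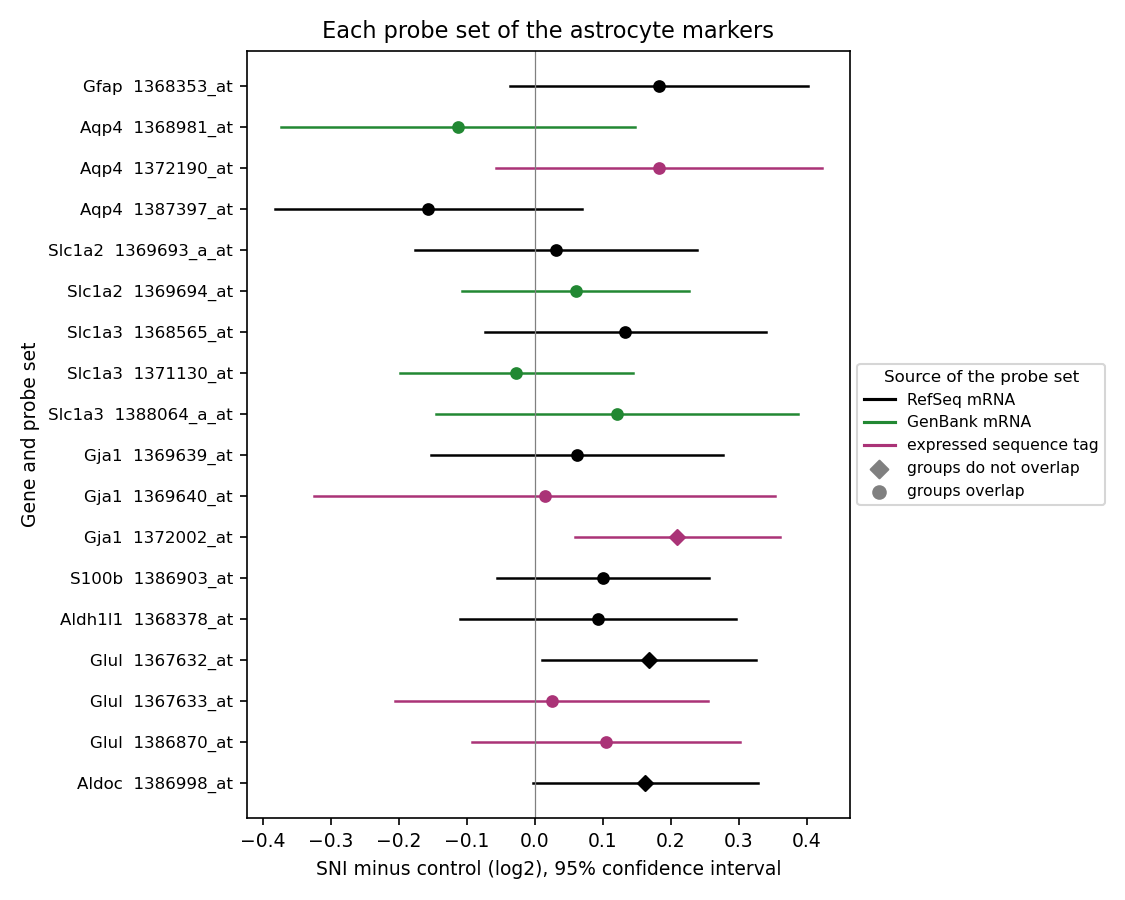
SNI minus control on the log2 scale (x axis) with its 95% confidence interval for each of the 18 probe sets of the astrocyte markers (y axis), colored by the kind of sequence the probe set was made from. Diamonds mark the 3 probe sets whose groups do not overlap, and Aqp4 and Slc1a3 have probe sets on both sides of 0.

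Beyond the 10 markers, 113 other astrocyte genes in 8 lists were measured, of 126 listed. None passed at an adjusted p under 0.05 (smallest 0.164). At an unadjusted p under 0.05, 16 of 113 (14.2%) were higher and 5 (4.42%) were lower, beside 3.96% and 9.19% of all genes, and the median difference was 0.03. The number of higher genes varied with the setting. Without control sample 3, 10 of 113 were higher and 4 lower, beside 3.33% and 6.96% of all genes. With the hybridization controls as a covariate 1 was higher and 4 were lower, beside 4.05% and 4.42% of all genes. The median of the 113 genes was −0.050 in control sample 3 and between −0.016 and 0.023 in the other 5 samples.

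Receptors and surface proteins held the most of them, with 5 of 14 genes (35.7%) higher and 1 (7.14%) lower, where 3.96% and 9.19% of all genes were. Tlcd1, a membrane lipid regulator, was at 0.22, 0.094 and 0.067 in the SNI samples and at −0.067, −0.25 and −0.35 in the control samples, a difference of 0.35 (SE 0.08, adjusted p = 0.206). Notch1, the receptor by which neighboring cells keep glial fates, had a difference of 0.19 (SE 0.05, adjusted p = 0.230) and Gpr37l1, an orphan receptor of astrocytes, one of 0.18 (SE 0.06, adjusted p = 0.297). Adra1b, an adrenergic receptor through which noradrenaline acts on astrocytes and neurons, went the other way, at −0.33, −0.13 and −0.16 against 0.28, 0.16 and 0.13. Its difference was −0.40 (SE 0.07, adjusted p = 0.164). For each of these 4 genes, the 4 with the smallest p of the list, the groups did not overlap. Of all genes 6.39% had every SNI sample above every control sample and 13.7% had every one below. With the covariate Adra1b stayed at −0.41 while Tlcd1 was at −0.0051.

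Among secreted proteins 4 of 17 (23.5%) were higher and none lower, beside 3.96% and 9.19% of all genes. Agt, angiotensinogen, which astrocytes make in the brain, was at 0.57, 0.04 and 0.33 in the SNI samples and at −0.33, −0.04 and −0.30 in the control samples. All SNI samples were above all control samples, with SNI sample 2 and control sample 2 close to each other. The difference of Agt was 0.54 (SE 0.14, adjusted p = 0.216), the largest of the 113 genes. With the covariate it was 0.35, the only 1 of the 13 other settings without an unadjusted p under 0.05. Htra1, a secreted protease, had a difference of 0.28 (SE 0.10), Bcan, the matrix proteoglycan brevican, one of 0.17 (SE 0.06), and Sdc4, a cell surface proteoglycan, one of 0.16 (SE 0.07), and their adjusted p lay between 0.320 and 0.363. None of these 3 kept an unadjusted p under 0.05 without control sample 3.

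Of 14 transcription factors 2 (14.3%) were higher and 1 (7.14%) lower, beside 3.96% and 9.19% of all genes. Hes1, a target of Notch receptors that holds back neuronal genes, was at 0.044, 0.57 and 0.28 in the SNI samples and at −0.28, −0.34 and −0.044 in the control samples, a difference of 0.52 (SE 0.13, adjusted p = 0.216). Lhx2, a LIM homeobox factor, had a difference of 0.18 (SE 0.06) and Id2, an inhibitor of DNA binding, one of −0.14 (SE 0.06). Emx2 was at 0.15 (SE 0.12) with overlapping groups. Hes1 kept an unadjusted p under 0.05 in each of the 13 other settings, and in the fit with the covariate it was at 0.98. Lhx2 kept one in 11 of these settings and Id2 in 6.

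Of 14 metabolic genes 3 (21.4%) were higher and 1 (7.14%) lower, beside the same 3.96% and 9.19% of all genes. Fabp7, the brain fatty acid-binding protein of astrocytes and their precursors, was at 0.19, 0.12 and 0.099 in the SNI samples and at −0.18, −0.099 and −0.34 in the control samples. The groups did not overlap, and the difference of 0.34 (SE 0.07, adjusted p = 0.196) was 0.28 without control sample 3. With the covariate it was 0.23, without an unadjusted p under 0.05. Mertk, a phagocytosis receptor of astrocytes and microglia, was at 0.26 (SE 0.10) with overlapping groups. Pygb, the brain form of glycogen phosphorylase, was at 0.15 (SE 0.06) and Gpam, an enzyme of lipid synthesis, at −0.21 (SE 0.08). Of the 13 other settings, Mertk kept an unadjusted p under 0.05 in 7, Pygb in 6 and Gpam in 9.

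Among 11 genes of channels and end feet 1 (9.09%) was higher and none lower, beside 3.96% and 9.19% of all genes. This was Ttyh1, a chloride channel, with 0.14, 0.13 and 0.072 against −0.062, −0.20 and −0.20 and a difference of 0.26 (SE 0.06, 95% confidence interval 0.13 to 0.40). Gjb6, the other connexin of astrocytes, was at 0.0056, −0.0056 and 0.0094 in the SNI samples and at 0.045, −0.38 and −0.60 in the control samples, with control samples 2 and 3 far below the other 4 and a difference of 0.32 (SE 0.14, adjusted p = 0.399). Slc4a4, a bicarbonate cotransporter, was at 0.11 (SE 0.06) and Hepacam, an adhesion molecule of astrocytes, at 0.14 (SE 0.08). None of 10 genes of glutamate and glutamine handling and none of 6 filament genes had an unadjusted p under 0.05. Slc6a9, a glycine transporter, was at −0.12 (SE 0.07), Grm3, a glutamate receptor, at 0.11 (SE 0.06), Slc25a18 at 0.10 (SE 0.07) and Slc38a3, a glutamine transporter, at 0.09 (SE 0.09). Of the filament genes S100a6 was at −0.24 (SE 0.18) and Ezr, Synm and Nes lay between 0.039 and 0.052. The filament list had its highest mean in control sample 3, at 0.16. Vim (0.77), S100a6 (0.54) and Nes (0.11) were above 0 there, and Ezr (−0.081), Synm (−0.19) and S100a1 (−0.19) below it. The list median was 0.015 in that sample and highest in SNI sample 3, at 0.073. Of the 3 controls, Gfap was also highest in control sample 3.

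Of 27 genes known to be induced in reactive astrocytes, 1 (3.7%) was higher and 2 (7.41%) were lower at an unadjusted p under 0.05, beside 3.96% and 9.19% of all genes. Of their differences 11 were above 0 and 16 below it, where 45.2% of all genes were above 0, and their median was −0.024. These shares were near those of all genes, and a difference from the other astrocyte lists was not tested. Hspb1, a small heat shock protein, was at −0.14, −0.22 and −0.20 in the SNI samples and at 0.41, 0.14 and 0.15 in the control samples. Every SNI sample was below every control sample, and the difference was −0.42 (SE 0.08, adjusted p = 0.175). Cryab, alpha B-crystallin, a small heat shock protein that is abundant in oligodendrocytes as well, had a difference of −0.29 (SE 0.06, adjusted p = 0.189) with no overlap. Ptgs2, the inducible cyclooxygenase, which cortical neurons also express, had a difference of 0.42 (SE 0.17, adjusted p = 0.356) although its groups overlapped, and Srgn, serglycin, was at 0.12 (SE 0.07). Hspb1 was lower at an unadjusted p under 0.05 in all 13 other settings and Cryab in 12 of them, and Ptgs2 was higher in 6.

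**Figure D4:**
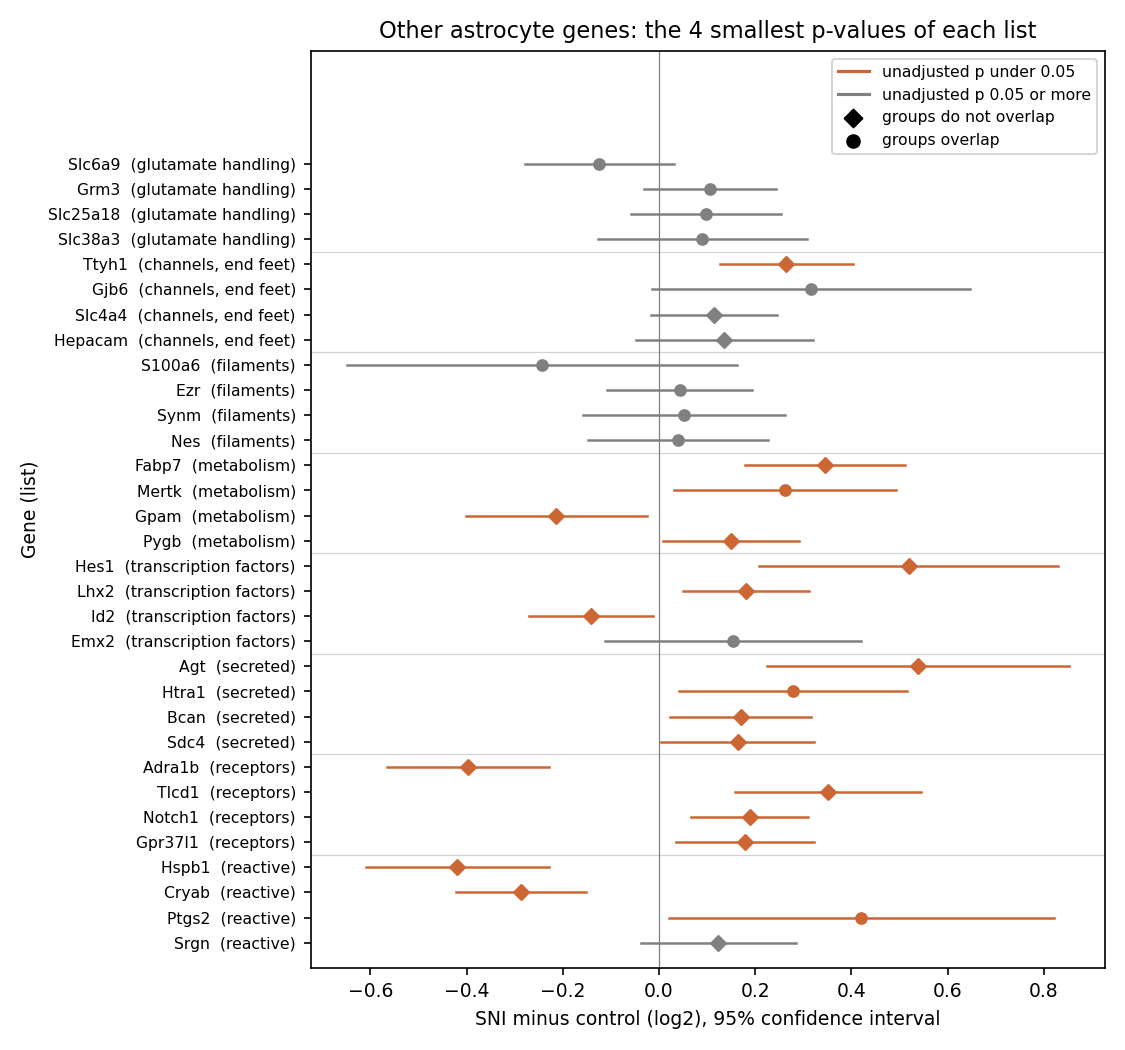
SNI minus control on the log2 scale (x axis) with its 95% confidence interval for the 4 genes with the smallest p of each of the 8 other astrocyte lists (y axis). Colored lines have an unadjusted p under 0.05 and diamonds mark groups that do not overlap; Agt and Hes1 lie furthest to the right, and Hspb1 and Adra1b furthest to the left.

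The astrocyte markers were set beside markers of the cell types that the tissue can also hold. The median difference was 0.10 over the 9 astrocyte markers and 0.22 over 17 microglia markers, of which 11 (64.7%) were higher and none lower at an unadjusted p under 0.05, beside 3.96% and 9.19% of all genes. Of these C1qa, a complement subunit, had the smallest p (0.36, SE 0.07, adjusted p = 0.164). With the hybridization controls as a covariate C1qa was at 0.16, without an unadjusted p under 0.05. The count of microglia markers is from the fit without a covariate only. Over 16 neuron markers the median was −0.13, with 3 above 0 and 13 below. Of these 16, 12.5% had every SNI sample above every control sample and 43.8% the reverse, beside 6.39% and 13.7% of all genes. Camk2a (0.29) and Map2 (0.23) were higher with no overlap. Over 13 markers of oligodendrocytes, the factors Olig1, Olig2 and Sox10 among them, the median was −0.06, with 4 above 0 and 9 below. Of these 13, 23.1% had every SNI sample above every control sample and 0% the reverse, beside 6.39% and 13.7% of all genes. Olig2 and Sox10 were both at 0.12, with no overlap. In control sample 3, where 6 astrocyte markers were lowest, the list means were −0.15 for astrocyte markers, 0.12 for neurons, 0.21 for oligodendrocytes, 0.18 for pericytes and smooth muscle, and 0.86 for meninges and fibroblasts. Vim, a filament gene of reactive astrocytes and of fibroblasts, was at 0.77 there and between −0.46 and 0.18 in the other samples. The part of these cell types in the values of the astrocyte markers was not tested. Whether astrocyte markers differ from the other lists was not tested.

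**Figure D5:**
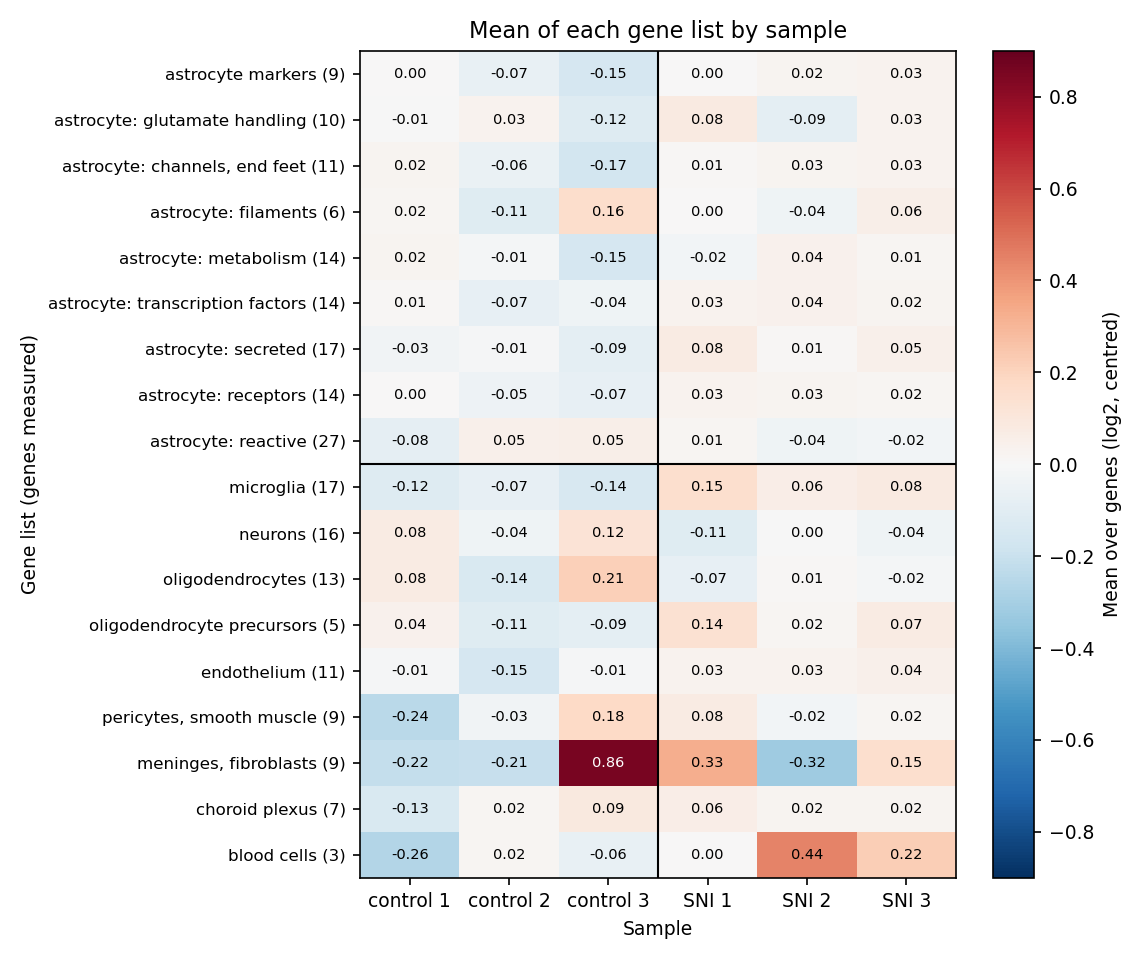
Mean of each gene list (y axis, number of genes measured in brackets) in each sample (x axis), as log2 values relative to the middle of the 6 samples, with blue below and red above 0. The astrocyte markers reach their lowest mean, −0.15, in control sample 3, where the meninges and fibroblast list reaches its highest, 0.86.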

How the data were processed

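The arrays were Affymetrix Rat Genome arrays, hybridized with RNA of 3 SNI and 3 control samples. The authors applied RMA, a log2 transform and quantile normalization, per the labels. Each probe set of the deposited log2 table has a median of 0 over the 6 samples (within 4.78e-07), a centring step not given in the sources used here. Therefore no filter on dim probe sets was possible. Of 31099 probe sets, 57 array controls were left out, and 20826 of the 31042 others carried 1 gene symbol. Probe sets and gene means (14217 genes) were fitted with limma 3.58.1 in R 4.3.3 (lmFit and eBayes, SNI minus control, no covariate), and plots drawn with Python 3.11.15 and matplotlib 3.10.9. The code was tested on simulated data. The members, lists, tests and alternatives were chosen with earlier results of these data known. Named genes were all members, the 4 with the smallest p of each other astrocyte list and the 1 with the smallest p of each list of another cell type (other members of a list were named after their values were seen). Older symbols were matched through gene identifiers. Alternatives were a repeated quantile normalization, medians of arrays set to 0, the methods' t-test, robust eBayes, the replicate number as a block, the 18 hybridization control probe sets as a covariate, plain _at probe sets only, other thresholds, and each sample left out in turn. The alternatives for the 113 other astrocyte genes were added after the values were seen. Of the lists of other cell types, those of oligodendrocyte precursors (2 higher of 5 measured), endothelium (3 of 11), pericytes and smooth muscle (0 of 9), meninges and fibroblasts (0 of 9), choroid plexus (1 of 7) and blood cells (2 of 3) had the counts given at an unadjusted p under 0.05, with none lower, beside 3.96% higher and 9.19% lower of all genes. Their genes with the smallest p were Cspg4 (0.29), Cldn5 (0.22), Rgs5 (0.09), Lum (−0.33), Drc12 (0.21) and Hbb (0.49). In neurons 2 were higher and 3 lower (Syt1, −0.38), and in oligodendrocytes none was higher and 1 lower (Cldn11, −0.33).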

Additional observations from a re-analysis of the deposited data

How the results depend on the processing

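No astrocyte marker passed an adjusted p under 0.05 in any of the 13 other settings or at an adjusted p under 0.10. The 1 member that was higher at an unadjusted p under 0.05 became 0 with the methods' t-test, with the replicate block and at an unadjusted p under 0.01, and 0 to 2 with a sample left out. It was Aldoc with all 6 samples, S100b and Aldoc without control sample 2, Slc1a3 without control sample 1, Gfap without control sample 3 and none without any one of the SNI samples. With the hybridization controls as a covariate 1 member was lower in place of 0, and the median difference was −0.029 in place of 0.095. The median difference with a sample left out was between 0.022 and 0.129. Of the 113 other astrocyte genes 16 were higher and 5 lower. The number higher was 10 with the methods' t-test (3.67% of all genes) and 1 with the covariate (4.05% of all genes). With a sample left out the number higher was 7 to 19 and the number lower 3 to 10. In those settings 2.36% to 8.53% of all genes were higher and 5.69% to 14.6% lower.

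Differences changed sign as follows, and the cause was not tested. With the covariate Aldh1l1 was at −0.11, Glul at −0.081 (its probe sets at −0.026, −0.12 and −0.094), Slc1a2 at −0.029 (1369693_a_at at −0.19) and Slc1a3 at −0.15 (1368565_at at −0.20 and 1388064_a_at at −0.21). In the same fit 1372190_at of Aqp4 was at −0.25 and 1369640_at of Gja1 at −0.21. With a sample left out Aqp4 ranged from −0.091 to 0.073 (0.016 without SNI sample 3) and Slc1a2 from −0.0010 to 0.091. On single probe sets 1369640_at of Gja1 ranged from −0.16 to 0.13, 1367633_at of Glul from −0.091 to 0.10, 1369693_a_at of Slc1a2 from −0.018 to 0.13, 1371130_at of Slc1a3 from −0.088 to 0.0080 and 1388064_a_at from −0.019 to 0.22. The deviations of same-numbered samples from their groups had correlations of −0.022, −0.0074 and −0.045 over genes. Those of differently numbered samples lay between −0.046 and 0.080. With 3 samples a group these values cannot show whether the numbers pair the samples. In the fit with the replicate block the smallest limma adjusted p of a member was 0.460. The file gives no level, so signal over background could not be read.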
